A study of Mus musculus with 13 samples.

Results

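The levels of 10 long non-coding RNAs, grouped under the name abundant neuronal long non-coding RNAs, were followed in CA1 after the loss of either of its main inputs. Not all of them were abundant here, as Mirg ranked 9669 and Peg13 8871 of 55291 symbols by mean normalized count in controls. Bulk tissue does not show which cells hold them. The genes Meg3, Rian, Mirg, Kcnq1ot1, Peg13, Malat1, Neat1, Miat, Snhg11 and Pantr1 were chosen by name, with earlier results of these data known. The rows of these 10 among 55291 gene symbols were used. RNA had been sequenced from 13 CA1 regions, each cut from a single organotypic entorhino-hippocampal culture labelled wildtype C57BL/6 (the culture protocol names C57BL/6J and Thy1-eGFP-M animals), with pups of either sex taken at postnatal day 4 to 5 and cultures grown for at least 18 days. There were 5 non-lesioned control cultures, 4 cultures after a Schaffer collateral lesion (SCL), which severs the axons from CA3, and 4 after an entorhinal cortex lesion (ECL), which severs the perforant path. Lesioned cultures were collected 3 days after the cut without the scar, and all groups share strain, genotype and culture conditions. Whether several cultures came from the same animal is not given, so the p-values measure the spread between cultures. The column heading of each library holds a sex letter and a number. That number recurs within and between groups, and what it stands for is not given. The source name of every library is a CA1 isolate, while the protocol kept with the libraries describes the dentate gyrus. The 6 CA1 pyramidal markers in the files were counted in every library. Of 8 dentate granule cell markers, Dsp, C1ql2 and Lct had 0 counts in at least 1 library, while Prox1 had 196 to 674 and Calb1 794 to 7044, and 4 of the 8 had enough counts to be tested. In controls the dentate markers summed to 3637 to 5759 normalized counts and the CA1 markers to 7318 to 8966. The label CA1 is used here as given.

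Long non-coding RNAs act as RNA molecules, in chromatin, in nuclear bodies or as carriers of small RNAs. Meg3, Rian and Mirg lie in a row in the imprinted Dlk1-Dio3 domain, are transcribed from the maternal chromosome, and are thought to be stretches of a long transcription unit that begins at the Meg3 promoter. Rian carries box C/D small nucleolar RNAs and Mirg carries microRNAs. Kcnq1ot1 and Peg13 are imprinted RNAs of the paternal chromosome, the former known for silencing its neighbours in cis and the latter transcribed from within Trappc9. Malat1 gathers in nuclear speckles, where splicing factors are stored, and Neat1 is the scaffold of paraspeckles. Miat, also called Gomafu, is a nuclear RNA of neurons, Snhg11 is a host gene of small nucleolar RNAs that is strongly expressed in nervous tissue, and Pantr1 is transcribed beside Pou3f3, a transcription factor gene of neural progenitors and upper layer neurons.

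The genome positions below are those of GENCODE M21 on GRCm38. Meg3 lies on chr12:109541001-109571726 on the plus strand, with 18.1 kb of merged exons, Rian follows at chr12:109603940-109661716 and Mirg at chr12:109729764-109749460. The 3 genes span 208 kb together, with 32.2 kb between Meg3 and Rian and 68.0 kb between Rian and Mirg. Between the start of Meg3 and the end of Mirg, the RefSeq table used here lists 60 microRNA genes, and 13 small nucleolar RNA genes lie within Rian.

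**Figure D1:**
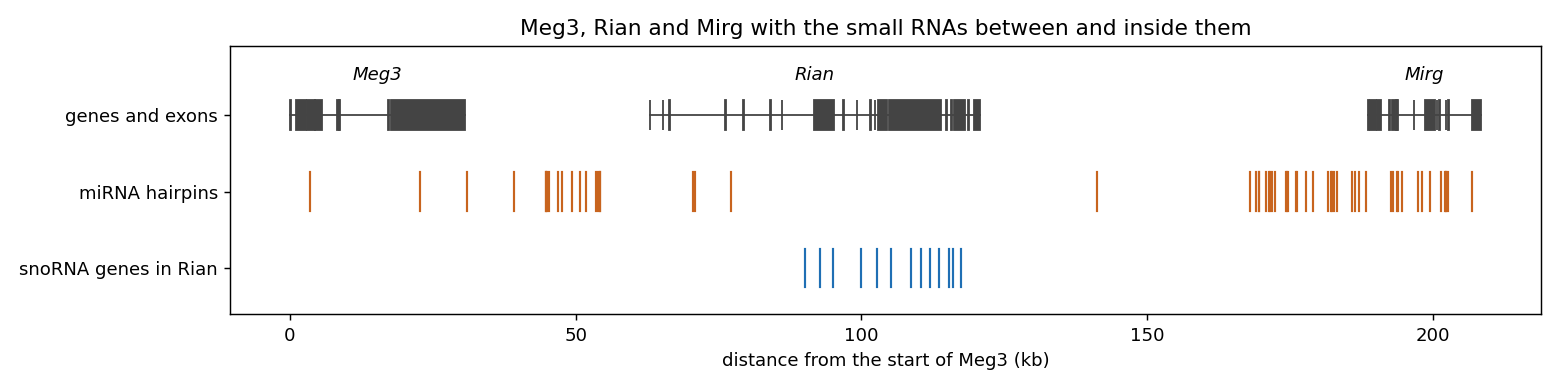
Map of Meg3, Rian and Mirg, drawn to scale as distance from the start of Meg3 in kilobases, with merged exons as boxes. The 60 microRNA genes stand along the domain, and the 13 small nucleolar RNA genes stand in Rian.

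The RefSeq windows around the annotated starts of Meg3 and Rian (250 bases before to 50 after, GRCm38.p6) are shown. They are chr12:109540746-109541045 for Meg3 and chr12:109603695-109603994 for Rian, both on the plus strand. If Rian belongs to a unit that begins at the Meg3 promoter, the window at its annotated start need not be a promoter. Capitals mark CG dinucleotides, the sites at which DNA is methylated.
Meg3: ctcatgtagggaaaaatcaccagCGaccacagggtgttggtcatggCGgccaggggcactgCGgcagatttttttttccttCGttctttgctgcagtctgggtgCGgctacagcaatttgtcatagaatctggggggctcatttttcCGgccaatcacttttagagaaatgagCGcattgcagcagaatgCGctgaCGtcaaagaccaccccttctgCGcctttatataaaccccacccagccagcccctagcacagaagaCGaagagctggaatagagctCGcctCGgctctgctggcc
Rian: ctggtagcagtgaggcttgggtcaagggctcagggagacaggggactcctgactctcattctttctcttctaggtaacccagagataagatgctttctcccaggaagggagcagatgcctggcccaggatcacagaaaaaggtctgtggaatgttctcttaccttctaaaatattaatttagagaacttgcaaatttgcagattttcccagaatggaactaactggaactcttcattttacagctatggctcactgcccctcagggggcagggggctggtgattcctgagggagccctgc
The Meg3 window held 13 CG dinucleotides and the Rian window 0, against a median of 7 over 32851 windows, of which 5.43% had none. The further windows of these genes held 25 (Miat), 21 (Snhg11), 10 (Mirg), 10 (Malat1), 9 (Kcnq1ot1) and 1 (a second Meg3 window). A relation of these numbers to the calls was not tested. The Meg3 window also holds the palindromic cAMP response element TGACGTCA, 57 bases before the start, which was present in 1.79% of all windows and in none of the other 7 windows of these genes (Meg3 has a further one, and Rian, Mirg, Kcnq1ot1, Malat1, Miat and Snhg11 have one each). Its shorter form TGACG, part of that palindrome, stood on either strand in the windows of Meg3, Kcnq1ot1 and Malat1 and in 20.8% of all windows. The EGR motif GCGTGGGCG was in none of the 8 windows and in 0.612% of all. A match of letters is a description and not a binding site.

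Several microRNA hairpins lie whole in exons of these genes, 2 of them in Meg3 and 4 in Mirg, and their mature RNAs show what the host transcripts carry. The capitals mark the seed, bases 2 to 8.
miR-770-5p (Meg3): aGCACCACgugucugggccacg
miR-134-5p (Mirg): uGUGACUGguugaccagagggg
miR-377-3p (Mirg): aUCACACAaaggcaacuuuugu
miR-410-3p (Mirg): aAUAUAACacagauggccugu
No 2 of these 4 share a seed, and miR-134 is known as a regulator of dendritic spines. The libraries hold polyadenylated RNA, so levels of the host genes are not levels of these microRNAs, which were not measured.

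The libraries were primed at poly(A) tails, so the annotated 3′ ends matter for what was counted. The last 30 bases are shown for both Neat1 transcripts, at chr19:5842307-5842336 for the short and chr19:5824708-5824737 for the long form (minus strand), for Malat1 at chr19:5795690-5795719 (minus strand) and for Meg3 at chr12:109571697-109571726 (plus strand), with the polyadenylation hexamer AATAAA in capitals.
Neat1, short transcript: tttacagcaaAATAAAggtttgagattgaa
Neat1, long transcript: gagaacgaacgtgagcaggaaaaagcaaaa
Malat1: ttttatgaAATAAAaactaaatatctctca
Meg3: gctttcAATAAAtttcttgttttaactaaa
The long Neat1 form, 20.8 kb against 3.00 kb for the short, ends without the hexamer. As background, the ends of long Neat1 and of most Malat1 are made by cleavage and closed by a triple helix in place of a tail. Counts per gene do not separate the Neat1 forms. Runs of at least 8 adenines, where an oligo-dT primer can also bind, numbered 30 in the 93.1 kb of Kcnq1ot1, 7 in the longest Meg3 transcript and 0 in those of Mirg, Peg13, Neat1 and Miat.

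Miat is known for repeats of UACUAAC, the branch point sequence that splicing factor SF1 binds. Written as DNA, TACTAAC occurred 6 times in its longest annotated transcript of 9.16 kb, 4 times in the 93.1 kb of Kcnq1ot1, 1 time in long Neat1 and not in the longest transcript of any other of the 10 genes. The densest stretch, 61 bases at chr5:112216752-112216812 on the minus strand, held 3 of the 6 repeats, in capitals.
Miat: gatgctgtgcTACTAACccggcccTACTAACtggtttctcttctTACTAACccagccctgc

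The depth ran from 14371152 to 21092612 counts over the control libraries, from 16405517 to 56786613 over SCL and from 20210165 to 46449937 over ECL. Together the 10 genes took 1.32% to 1.64% of all counts in controls, 0.980% to 1.25% after SCL and 1.05% to 1.61% after ECL. Malat1 alone was 48.7% to 63.8% of that sum in controls, 64.5% to 72.9% after SCL and 69.6% to 80.2% after ECL. This share also depends on the other genes of the sum, and Malat1 itself was not called after either lesion. By mean normalized count in controls, Malat1 ranked 3, Meg3 15 and Snhg11 25 of 55291 symbols, while Mirg ranked 9669. The share of mitochondrially encoded RNA was 6.07% to 7.96% in controls, 3.42% to 4.26% after SCL and 4.10% to 5.38% after ECL, without overlap between controls and either lesion. Its part in the results below was not tested.

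To compare the genes with each other, counts scaled over all 13 libraries were divided by kilobases of merged exon. In controls the order of mean levels per kilobase was Malat1 (29267 ± 5885, SD, n = 5), Snhg11 (5251 ± 1519), Meg3 (4033 ± 507), Pantr1 (1698 ± 770), Neat1 (544 ± 46.3), Miat (304 ± 59.3), Rian (102 ± 13.5), Kcnq1ot1 (76.4 ± 7.88), Peg13 (70.5 ± 16.5) and Mirg (36.4 ± 8.38). Neighbours in this order had separate ranges over the 5 libraries except Snhg11 and Meg3, and Kcnq1ot1 and Peg13. Neat1 was divided by 20.8 kb, the length of its long form, while the short form has 3004 bases. The level of Neat1 per kilobase and its place in the order rest on that choice. Kcnq1ot1 was divided by 93.1 kb, and its place rests on that length. By mean normalized count in controls it ranked 530 of 55291 symbols, ahead of Miat at 1795 and Rian at 2850. Malat1 remained at the head and Mirg at the foot after both lesions. After ECL, Miat, at 100.5 ± 37.2 (n = 4), stood behind Rian, at 102 ± 13.1, with overlapping ranges.

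**Figure D2:**
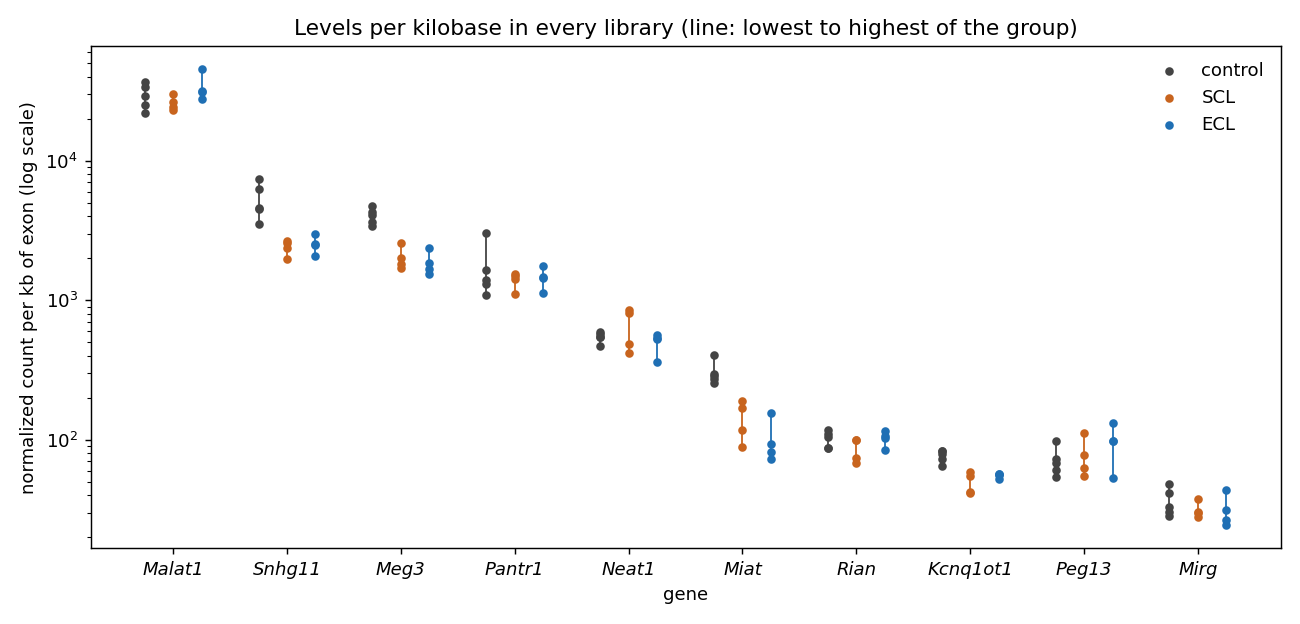
Normalized counts per kilobase of merged exon on a log axis for each gene in 5 control, 4 SCL and 4 ECL libraries (points), with a line from the lowest to the highest library of a group. The genes stand in the order of their control means, from Malat1 at 29267 to Mirg at 36.4.

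Against this background, 4 of the 10 genes fell after SCL and 4 fell after ECL, and none rose. These were Meg3, Miat, Snhg11 and Kcnq1ot1 in both comparisons, which share their control libraries. Each lesion was compared with the controls by edgeR's quasi-likelihood test over all genes whose normalized count averaged 150 or more, adjusted by Benjamini-Hochberg, and all 10 genes passed that minimum in every comparison. After SCL, 24.6% of 11733 tested genes were called and 11.6% were called lower. After ECL, 27.6% of 11392 were called and 12.4% were called lower. The same 4 genes were those without overlap between lesioned and control libraries, against 23.3% and 24.9% of all genes tested. The 10 genes had a median log2 fold change of -0.26 (SCL) and -0.21 (ECL), against 0.0096 and -0.0058 over everything tested. In bulk tissue, fewer cells of a type and less RNA per cell cannot be told apart.

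**Figure D3:**
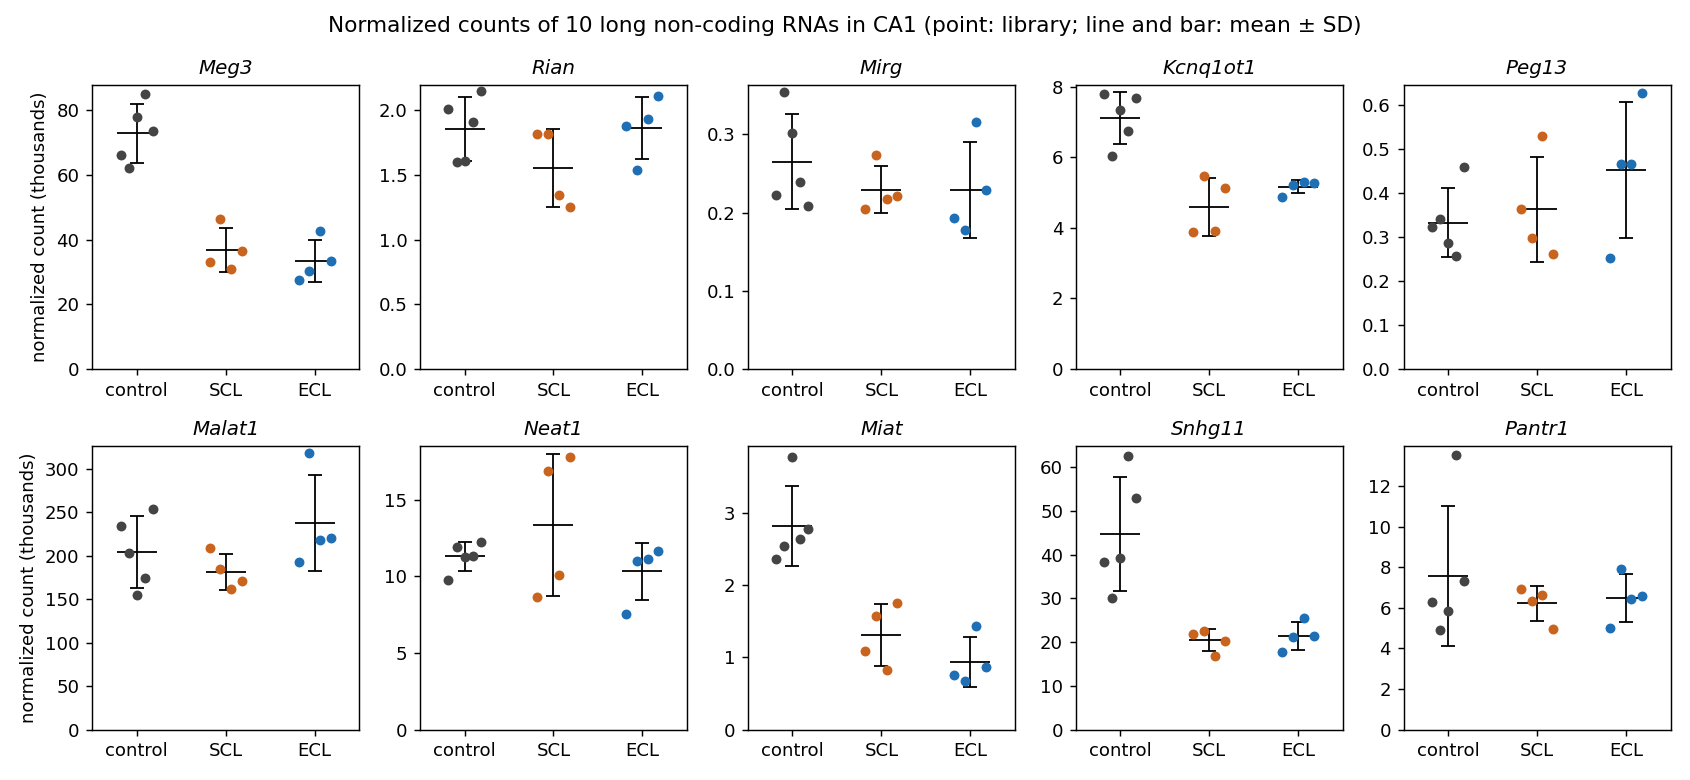
Normalized counts of the 10 genes, in the unit given on each axis, in each library (points), with the mean and SD of 5 control, 4 SCL and 4 ECL libraries. The lesioned libraries lie below every control for Meg3, Kcnq1ot1, Miat and Snhg11 and overlap the controls for the other genes.

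Meg3, which acts at chromatin and whose loss is lethal around birth in mice, had normalized counts of 66055, 62074, 78021, 84976 and 73626 in control replicates 1 to 5. After SCL the counts were 33131, 46279, 30923 and 36452, and after ECL they were 27665, 30302, 42627 and 33400. All 8 lesioned libraries lay below the lowest control. On the log2 scale the difference was -0.99 ± 0.17 (SE, adjusted p = 0.00269) after SCL and -1.12 ± 0.17 (adjusted p = 0.000575) after ECL, so Meg3 was 1.99-fold and 2.17-fold lower. With the offset for length and GC content the fall after SCL was smaller, at -0.61 (edgeR, adjusted p = 0.00712). On the other strand, the lincRNA gene Gm26906 shares 6.79% of the Meg3 exon bases, and the counting ignored strand.

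Rian, downstream of Meg3, was not called. Counts after normalization were 2011, 1597, 1604, 1908 and 2151 in controls, 1817, 1814, 1342 and 1253 after SCL and 1878, 1539, 1935 and 2111 after ECL. SCL replicates 3 and 4 and ECL replicate 2 lay below the control range, and the other lesioned libraries lay within it. edgeR gave a log2 fold change of -0.25 (95% CI -0.58 to 0.085, adjusted p = 0.254) after SCL and 0.017 (95% CI -0.30 to 0.33, adjusted p = 0.945) after ECL. When length and GC content entered as an offset, the values became 0.47 (edgeR, adjusted p = 0.0519) after SCL and 0.65 (adjusted p = 0.00573) after ECL, so the direction after SCL and the call after ECL rest on that choice.

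Mirg, the last of the row, was measured on few counts, 132 to 679 per library. The libraries held normalized counts of 223, 354, 302, 239 and 208 in controls, 205, 274, 218 and 221 after SCL and 194, 177, 316 and 229 after ECL. The groups overlapped. The estimated log2 fold change was -0.21 (95% CI -0.70 to 0.28, adjusted p = 0.528) after SCL and -0.21 (95% CI -0.74 to 0.33, adjusted p = 0.572) after ECL.

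The counts of these 3 genes were then set against each other within each library, where no scaling between libraries enters. The pairs were chosen after the values had been seen, and the ratios rest on the same counts as the fold changes above. Rian counts were 3.04%, 2.57%, 2.06%, 2.25% and 2.92% of Meg3 counts in controls, 5.48%, 3.92%, 4.34% and 3.44% after SCL and 6.79%, 5.08%, 4.54% and 6.32% after ECL. Every lesioned library exceeded every control. The ratio was 1.67-fold higher after SCL and 2.21-fold higher after ECL (two-sided exact permutation test, p = 0.0159 for both, the smallest that 5 against 4 libraries allow, adjusted p = 0.0476 over 12 tests). That adjusted value depends on ties at the smallest p between this ratio and Mirg to Meg3, in both lesions. The tied tests share Meg3 counts and control libraries, so the adjusted value is not independent support for the ratio.

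Mirg to Meg3 has the same Meg3 counts below it as Rian to Meg3, so it is not a separate observation. Mirg counts were 0.281% to 0.570% of Meg3 counts in controls, 0.593% to 0.704% after SCL and 0.585% to 0.742% after ECL. The ratio was 1.75-fold and 1.88-fold higher (exact permutation test, p = 0.0159 for both, adjusted p = 0.0476). Mirg to Rian overlapped between all groups, at 9.69% to 22.2% in controls, 11.3% to 17.7% after SCL and 10.3% to 16.3% after ECL (exact permutation test, p = 0.794 after SCL and 0.413 after ECL). Of the 3 pairs in the domain, both that include Meg3 shifted without overlap, and both hold the same fall of Meg3 counts.

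**Figure D4:**
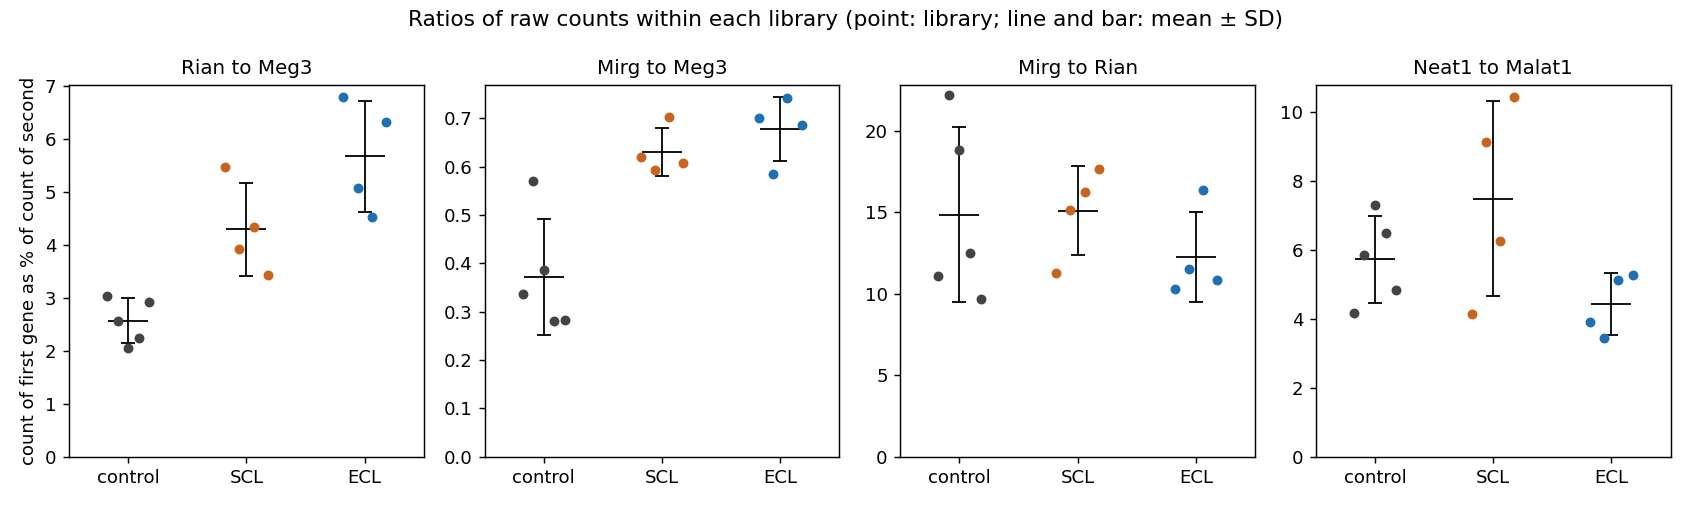
Raw count of the first gene as a percentage of the count of the second within each library (points), with the mean and SD of 5 control, 4 SCL and 4 ECL libraries. The lesioned libraries lie above every control for Rian to Meg3 and Mirg to Meg3, and the groups overlap for Mirg to Rian and Neat1 to Malat1.

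Of the 7 other genes listed for the Dlk1-Dio3 domain, 2 had enough counts to be tested and neither was called in either comparison. Dlk1, Rtl1 and Dio3, the protein genes expressed from the paternal chromosome, were near the floor, with 12 to 240, 14 to 161 and 4 to 88 raw counts per library.

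Kcnq1ot1 lies on chr7:143203458-143296549 on the minus strand as a single exon of 93.1 kb, antisense to Kcnq1. Its normalized counts were 7786, 6026, 7334, 6736 and 7683 in controls, 3881, 5458, 3905 and 5131 after SCL and 4885, 5217, 5286 and 5258 after ECL. Every lesioned library lay below the lowest control. Its log2 fold change was -0.63 ± 0.15 (SE, adjusted p = 0.00956) after SCL and -0.46 ± 0.13 (adjusted p = 0.0173) after ECL.

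This call was the least stable of the 4. With scaling factors over all symbols the values were -0.43 (adjusted p = 0.0565) and -0.27 (adjusted p = 0.163), but that scaling raised the median of all genes by 0.21 and 0.18, and relative to it Kcnq1ot1 stood at -0.64 and -0.45. With the offset for length and GC content its sign turned, to 0.35 (adjusted p = 0.13) after SCL and 0.46 (adjusted p = 0.0382) after ECL, and without ECL replicate 4 the adjusted p was 0.051. Kcnq1 itself, whose strand the counting does not separate, had 0 to 14 raw counts per library. Of 11 other genes of the domain, 3 were tested. Cd81, a tetraspanin found on glia and immune cells, rose by 0.91 ± 0.19 (SE, adjusted p = 0.00572) after SCL and 1.02 ± 0.16 (adjusted p = 0.000537) after ECL on the log2 scale, and Tssc4 fell by 0.62 ± 0.22 after ECL (edgeR, adjusted p = 0.0482).

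Peg13, at chr15:72805600-72810324 on the minus strand, lies within Trappc9 on the same strand, so unspliced Trappc9 RNA cannot be told apart from it. Counts after normalization were 322, 342, 286, 257 and 460 in controls, 365, 297, 530 and 262 after SCL and 252, 466, 466 and 628 after ECL. The groups overlapped, and ECL replicate 1 was the lowest library of all. On the log2 scale the difference was 0.13 (95% CI -0.40 to 0.66, adjusted p = 0.734) after SCL and 0.45 (95% CI -0.11 to 1.00, adjusted p = 0.214) after ECL. Of its 4 listed neighbours in the imprinted domain, Kcnk9, a potassium leak channel gene expressed from the maternal chromosome, fell by 0.69 ± 0.13 (SE, edgeR, adjusted p = 0.0046) after SCL and by 0.52 ± 0.16 (adjusted p = 0.0293) after ECL on the log2 scale. Chrac1, a histone-fold subunit of chromatin remodellers, rose by 1.10 ± 0.20 (adjusted p = 0.00372) and 1.25 ± 0.23 (adjusted p = 0.00181), and Trappc9 and Ago2 were not called.

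Malat1 and Neat1 are neighbours on chromosome 19, at chr19:5795690-5802672 and chr19:5824708-5845478, both on the minus strand with 22 kb between them. Malat1 normalized counts were 234634, 203678, 154650, 174677 and 254215 in controls, 209150, 184651, 161655 and 170705 after SCL and 193269, 318402, 218039 and 220620 after ECL. The groups overlapped, with ECL replicate 2 above all other libraries. edgeR gave a log2 fold change of -0.17 (95% CI -0.58 to 0.24, adjusted p = 0.542) after SCL and 0.22 (95% CI -0.21 to 0.66, adjusted p = 0.437) after ECL.

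Neat1 normalized counts were 9745, 11919, 11279, 11327 and 12252 in controls, 8627, 16851, 10098 and 17793 after SCL and 7531, 10980, 11142 and 11633 after ECL. The SCL libraries split, with replicates 2 and 4 above every control, and ECL replicate 1 was the lowest of all 13. Replicates 2 and 4 are the deepest and the shallowest SCL library, and both also had more Miat and Kcnq1ot1 than SCL replicates 1 and 3. The estimated log2 fold change was 0.24 (95% CI -0.20 to 0.68, adjusted p = 0.414) after SCL, or 0.65 (adjusted p = 0.0236) with the offset for length and GC content, and -0.12 (95% CI -0.45 to 0.20, adjusted p = 0.579) after ECL. Neat1 counts were 4.15% to 7.29% of Malat1 counts in controls, 4.12% to 10.4% after SCL and 3.45% to 5.27% after ECL, and the ratios overlapped between all groups (exact permutation test, p = 0.349 after SCL and 0.143 after ECL).

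The proteins of both nuclear bodies were looked at in the same fits. Of 10 paraspeckle protein genes, all tested, 2 fell after SCL and 3 after ECL and none rose. Ewsr1, which encodes an RNA-binding protein, fell by 0.48 ± 0.15 (SE, edgeR, adjusted p = 0.0377) and 0.83 ± 0.14 (adjusted p = 0.00128) on the log2 scale. Of 18 genes of nuclear speckles and splicing, 16 were tested, of which 3 fell and 1 rose after SCL and 2 fell and 2 rose after ECL. Srrm2 and Srrm1, whose proteins are found in speckles, fell by 0.91 ± 0.14 (adjusted p = 0.00171) and 0.77 ± 0.12 (adjusted p = 0.0023) after SCL. After ECL, Son, which encodes a further speckle protein, fell by 0.50 ± 0.14 (adjusted p = 0.0151) and the splicing factor gene Srsf7 rose by 0.76 ± 0.19 (adjusted p = 0.00939). The shares called stand beside 24.6% and 27.6% of all genes tested.

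Miat, at chr5:112213228-112229395 on the minus strand, had the largest fall of the 10 after ECL. The libraries held normalized counts of 2369, 2546, 3771, 2644 and 2773 in controls, 1086, 1578, 825 and 1749 after SCL and 759, 672, 1438 and 868 after ECL. All lesioned libraries lay below the lowest control. Its log2 fold change was -1.11 ± 0.22 (SE, adjusted p = 0.00492) after SCL and -1.59 ± 0.22 (adjusted p = 0.000346) after ECL, a level 2.16-fold and 3.01-fold lower. Of its exon bases, 24.3% are shared with Gm26953 on the other strand, which itself had 18 to 119 raw counts per library, against 659 to 3905 for Miat.

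Snhg11, at chr2:158375638-158386145 on the plus strand, is listed as protein_coding in this annotation, has 8.52 kb of merged exons and holds 2 small nucleolar RNA genes. Its normalized counts were 38439, 30202, 39361, 62645 and 53057 in controls, 21867, 22627, 16919 and 20222 after SCL and 17756, 21247, 25530 and 21402 after ECL. All lesioned libraries lay below the lowest control. The coefficient of variation was 28.9% in controls, 12.4% after SCL and 14.8% after ECL. On the log2 scale the difference was -1.13 ± 0.21 (SE, adjusted p = 0.00372) after SCL and -1.05 ± 0.21 (adjusted p = 0.00263) after ECL, a level 2.19-fold and 2.07-fold lower.

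Other host genes of small nucleolar RNAs were counted beside 24.6% (SCL) and 27.6% (ECL) of all genes called. Of 14 tested of 18 listed, 2 fell and none rose after SCL, and 3 fell and 2 rose after ECL, with a median log2 fold change of -0.0082 and 0.16. Snhg14, which carries the Snord115 and Snord116 clusters of the Prader-Willi region, fell by 0.76 ± 0.13 (SE, adjusted p = 0.00316) and 0.57 ± 0.14 (adjusted p = 0.00777) on the log2 scale. Snhg1 fell by 0.70 ± 0.18 (adjusted p = 0.014) and 0.69 ± 0.17 (adjusted p = 0.00818).

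Pantr1, at chr1:42590782-42694842 on the minus strand, was held high in controls by 1 library. Counts after normalization were 6265, 4898, 5865, 13511 and 7299 in controls, 6923, 6347, 6641 and 4950 after SCL and 5010, 7885, 6430 and 6595 after ECL. The groups overlapped, and control replicate 4 stood above the other 12 libraries. edgeR gave a log2 fold change of -0.28 (95% CI -0.81 to 0.26, adjusted p = 0.435) after SCL and -0.22 (95% CI -0.75 to 0.32, adjusted p = 0.557) after ECL, and without control replicate 4 it was 0.025 and 0.091. Its neighbour Pou3f3 had mean normalized counts of 2715 ± 547 (SD, n = 5) in controls, 2190 ± 354 (n = 4) after SCL and 2001 ± 264 (n = 4) after ECL.

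**Figure D5:**
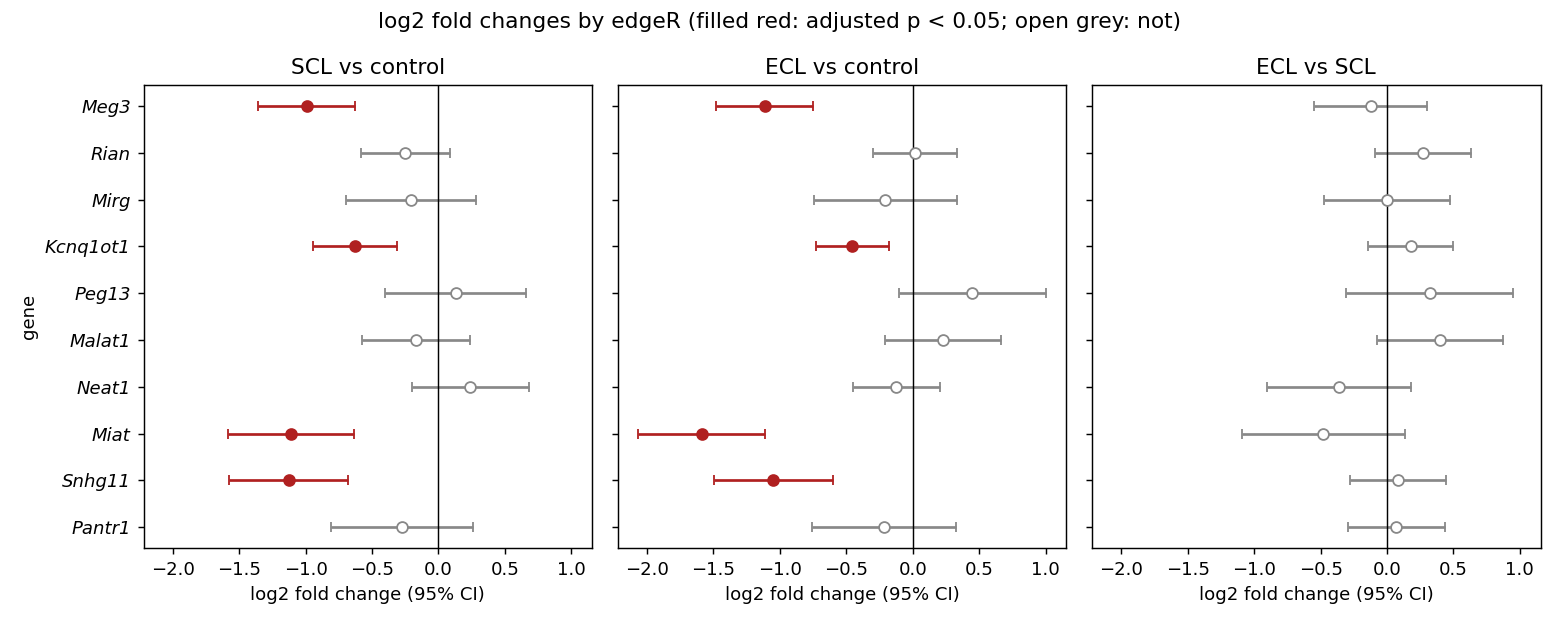
log2 fold changes with 95% confidence intervals for the 10 genes in the 3 comparisons, filled red where the adjusted p of edgeR was below 0.05. The 4 called genes are Meg3, Kcnq1ot1, Miat and Snhg11 in both comparisons with controls, from -1.59 to -0.46, and none was called between ECL and SCL.

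The lesions were also compared with each other. None of the 10 genes was called between ECL and SCL, and 0% of 12478 genes were (edgeR's quasi-likelihood test), while 918 genes and 0 of the 10 had an unadjusted p below 0.05 and DESeq2 called 79 genes. Each of the 10 overlapped between the lesions, while 3.85% of all genes did not overlap, 2.3% lower and 1.55% higher after ECL. The estimates ran from -0.48 (95% CI -1.09 to 0.14) for Miat to 0.40 (95% CI -0.077 to 0.87) for Malat1. That of Meg3 was -0.12 (95% CI -0.55 to 0.30), that of Snhg11 0.084 (95% CI -0.28 to 0.45) and that of Kcnq1ot1 0.18 (95% CI -0.14 to 0.50). The intervals are wide, and that of Miat reaches almost as far as its difference between SCL and controls. Rian to Meg3 was 1.33-fold higher after ECL than after SCL, with overlapping ranges (exact permutation test, p = 0.114, with 0.0286 the smallest that 4 against 4 libraries allow).

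All other tested genes annotated as long non-coding RNA give a frame for these values. The counts of this paragraph stand beside 24.6% (SCL) and 27.6% (ECL) of all genes called. Of 488 such genes, 100 (20.5%) fell and 19 (3.89%) rose after SCL, and of 461, 70 (15.2%) fell and 29 (6.29%) rose after ECL. In all, 24.4% and 21.5% were called, with medians of -0.21 and -0.12 on the log2 scale. Among 26 other long non-coding RNAs listed by name for the brain, 20 were tested after SCL and 3 fell, and 19 were tested after ECL and 1 fell, with none higher in either. Lncpint fell by 1.36 ± 0.27 (SE, edgeR, adjusted p = 0.00525) and Ftx, of the X inactivation centre, by 0.59 ± 0.16 (adjusted p = 0.022) after SCL, and Dlx6os1, an RNA of interneurons, by 0.61 ± 0.20 (adjusted p = 0.0377) after ECL. Of 35 other imprinted genes, 27 were tested after SCL, of which 4 rose and 5 fell, and 26 after ECL, of which 4 rose and 4 fell. Igf2r, the receptor that clears IGF2, fell by 1.04 ± 0.19 (adjusted p = 0.00377) and 1.08 ± 0.20 (adjusted p = 0.00175). Zdbf2 fell by 0.83 ± 0.21 (adjusted p = 0.0126) after SCL, and Snrpn, a splicing protein gene, rose by 1.33 ± 0.29 (adjusted p = 0.00492) after ECL.

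Marker genes of cell types were counted in the same libraries, beside 24.6% (SCL) and 27.6% (ECL) of all genes called. Of 12 neuron markers, all tested, 4 fell after SCL and 7 after ECL and none rose, and their summed normalized count was 113156 to 134174 in controls, 96738 to 122241 after SCL and 92025 to 126786 after ECL. Of 12 microglia markers, 12 rose after SCL and 8 after ECL, and their sum was 13631 to 16368 in controls, 27457 to 57315 after SCL and 31301 to 40804 after ECL, without overlap. For the microglia sum the exact permutation test gave p = 0.0159 after each lesion, the smallest possible (adjusted p = 0.105 over 33 tests). For the neuron sum the same test gave adjusted p = 0.236 after SCL and 0.299 after ECL. Of 6 CA1 pyramidal markers, 2 fell after SCL and 0 after ECL. Of 10 astrocyte markers, 4 rose after SCL, and 3 rose and 2 fell after ECL, and of 11 oligodendrocyte lineage markers, 2 rose after each lesion. Of 8 interneuron markers, 1 rose and 1 fell after SCL, and 2 rose and 2 fell after ECL. Of 4 tested dentate granule cell markers, 1 fell after each lesion, as did 1 of 3 tested endothelial and mural markers, and no CA3 marker was called, of 5 tested after SCL and 4 after ECL. None of the listed genes stayed at 3 counts or fewer in all 13 libraries. The part of these shifts in the fall of Meg3, Miat, Snhg11 and Kcnq1ot1 was not tested.

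For each gene, the 2 genes with the most alike pattern were named by Pearson correlation of log2 normalized counts over all 13 libraries, among 11319 genes tested in all comparisons. Since controls and lesioned libraries stand apart, the value after removing the group means is given beside it, and both are descriptions over libraries that share depth and handling. Meg3 was closest to Nptn (0.98, and 0.85 within groups) and Dynll2 (0.97 and 0.83). Miat was closest to Shank1, a scaffold of the postsynaptic density (0.98 and 0.93), and Coasy (0.98 and 0.95). Snhg11 was closest to Birc6 (0.98 and 0.95) and the adhesion gene Ncam1 (0.98 and 0.94).

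The closest patterns to Kcnq1ot1 were those of Smchd1, a chromatin protein of the silent X chromosome (0.94, and 0.76 within groups), and Lss, a sterol synthesis enzyme (0.93 and 0.72). Peg13 was closest to Syn1, a synaptic vesicle protein (0.93 and 0.96), and Zdhhc2 (0.88 and 0.88), and Pantr1 to Celf2 (0.93 and 0.95) and Lmo3 (0.92 and 0.95). Rian was closest to Mmab (0.84 and 0.82) and the pseudogene 5830417I10Rik (0.80 and 0.75), and Mirg to Slc12a4 (0.89 and 0.88) and Rilpl1 (0.89 and 0.88). Malat1 was closest to the long non-coding RNA 9330151L19Rik (0.84 and 0.86) and the splicing regulator Mbnl2 (0.79 and 0.73), and Neat1 to Ptgs1 (0.88 and 0.88) and Fbrs (0.87 and 0.88).

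Called genes within 200 kb of these RNAs lay in both directions, beside 24.6% (SCL) and 27.6% (ECL) of all genes called. None of the 2 tested neighbours of Meg3, Rian and Mirg was called, and none near Snhg11, of 3 tested after SCL and 2 after ECL. Of 12 tested neighbours of Malat1, 1 rose after SCL, and 2 rose and 1 fell after ECL. Frmd8, 4.22 kb from Neat1, rose by 0.68 (adjusted p = 0.0146) after SCL and 0.56 (adjusted p = 0.0209) after ECL on the log2 scale, while Ehbp1l1 fell by 0.85 (edgeR, adjusted p = 0.0138) and Kat5 rose by 1.10 (adjusted p = 0.0156) after ECL. Near Miat, Crybb1, a gene also expressed in microglia, rose by 1.52 (adjusted p = 0.00955) after SCL. Near Pantr1, Mrps9, of the mitochondrial ribosome, rose by 0.58 (adjusted p = 0.044) and 0.85 (adjusted p = 0.0028), and near Peg13 the pseudogene Gm3150 rose by 1.12 (adjusted p = 0.00359) and 0.94 (adjusted p = 0.00662).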

How the data were processed

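Poly(A) RNA of 13 CA1 isolates had been reverse transcribed with oligo-dT primers and amplified (12 cDNA and 10 library PCR cycles), and 150 bp paired reads had been trimmed with cutadapt 3.5, aligned to mm10 with STAR 2.7.8a and counted per gene by the authors with featureCounts 2.0.1 on GENCODE M25 without strand. The deposited values are raw counts, not normalized. Low counts were mostly even, so mates were apparently counted separately. Groups came from the labels. The members and gene lists were chosen with earlier results of these data known.

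Each pair of groups was fitted with edgeR 4.0.16 (quasi-likelihood test, TMM over tested genes) on genes whose normalized count averaged 150 or more, and p-values were adjusted by Benjamini-Hochberg over all tested genes at a threshold of 0.05. The biological coefficient of variation was 0.244 (SCL vs control), 0.238 (ECL vs control) and 0.222 (ECL vs SCL). The depth of 14371152 to 56786613 counts limits precision mainly for Mirg and Peg13. Ratios within libraries were compared by two-sided exact permutation tests (scipy). Genes were named where they were members, the 2 closest patterns to each, up to 2 called genes of each list per comparison, or called neighbours within 200 kb. Some genes that met this rule are not reported here. Alternatives used DESeq2 1.42.0, other scalings, filters and blocks, an offset for length and GC content (mgcv 1.9.3), and leaving out each library. Annotation was GENCODE M21 on GRCm38, in which 53292 of 55291 symbols were found. The fits were tested on simulated data.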

Additional observations from a re-analysis of the deposited data

Results flagged for a closer look

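Of 30 groups of libraries examined (10 genes in 3 groups), 4 held a library far from the others by the ratio of its gap to the group's range, and chance flags about 1 in 20 groups. ECL replicate 1 was lowest for Kcnq1ot1, at 4885 normalized counts against 5217 in the nearest library (gap ratio 0.830), and for Neat1, at 7531 against 10980 (gap ratio 0.841). Control replicate 3 was highest for Miat, at 3771 against 2773 (gap ratio 0.712). Control replicate 4 was highest for Pantr1, at 13511 against 7299 (gap ratio 0.721).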

How the results depend on the processing

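Meg3, Miat and Snhg11 kept their direction and their call in both comparisons with controls under all 23 alternatives, while the number of called genes among the 10 was 3 to 4 after SCL and 3 to 5 after ECL, and 0 between ECL and SCL. Kcnq1ot1 lost its call after SCL with TMM over all symbols (-0.43) and without a filter (-0.43), and after ECL with these (-0.27 for both), with edgeR's filterByExpr (-0.39, adjusted p = 0.0512), with a threshold of 0.01 and without ECL replicate 4 (adjusted p = 0.051). The offset for length and GC content gave Meg3 -0.61 after SCL, against -0.99, and -0.78 after ECL, against -1.12, and it gave Kcnq1ot1 0.35 after SCL and 0.46 after ECL, Rian 0.47 after SCL and Neat1 0.26 after ECL. TMM over all symbols and no filter gave Malat1 0.024 after SCL and Neat1 0.054 after ECL. The cause of these changes was not tested.

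Leaving out 1 library at a time gave -0.11 to 0.27 for Peg13 and -0.40 to 0.025 for Pantr1 after SCL, and -0.044 to 0.10 for Rian, -0.18 to 0.014 for Neat1 and -0.34 to 0.091 for Pantr1 after ECL. Between ECL and SCL it gave -0.26 to 0.0083 for Meg3, -0.19 to 0.11 for Mirg, -0.012 to 0.17 for Snhg11 and -0.034 to 0.18 for Pantr1, and the log2 ratio of Mirg to Rian after SCL ran from -0.061 to 0.24. Between ECL and SCL, Mirg, at 0.0022, took the values -0.0092 (DESeq2), -0.0069 (DESeq2 size factors), -0.00091 (TMM over all symbols), -0.0011 (no filter), -0.0036 (filterByExpr), -0.0072 (one fit of all groups), -0.076 (sex term) and -0.00019 (halved counts), and Snhg11 took -0.018 (sex term).

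Deviations of same-numbered libraries correlated from -0.147 to 0.529 (median -0.0058) over 12 pairs. Over 44 differently numbered pairs they correlated from -0.388 to 0.345 (median 0.012). The highest value was that of ECL replicate 1 with SCL replicate 1, so these ranges do not settle whether the numbers pair the libraries. The main fits did not pair them. A replicate block called 2356 genes after SCL and 2678 after ECL, left Kcnq1ot1 at -0.42 (adjusted p = 0.0645) after ECL and gave Mirg -0.021 between the lesions. A block for the number in the column headings, chosen after seeing the data, called 1824 genes after SCL and gave Mirg -0.018. A term for the sex letter called 2593 genes after SCL and 2368 after ECL.

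Over all genes, 2891 were called after SCL and 3139 after ECL. The counts were 5390 and 8034 without a filter and 1050 and 1495 at a threshold of 0.01, and leaving out SCL replicate 3 gave 1672 and SCL replicate 2 gave 1904 after SCL. Without ECL replicate 4, 2094 were called after ECL. TMM over all symbols split the calls into 2554 higher and 602 lower after SCL and 2460 and 695 after ECL, against 1529 and 1362, and 1722 and 1417. DESeq2 size factors gave 1794 and 991 after SCL, and DESeq2 2154 and 1242. Between ECL and SCL, 79 genes were called with DESeq2, 217 without a filter and 54 without SCL replicate 3.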
